A study of Mus musculus with 12 samples.

Results

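The genes described here are 10 members of the MYC and MAX transcription factor network, chosen by gene symbol from the 45706 genes of the expression table. They are Myc, Mycn and Mycl, which encode the MYC family proteins, Max, their obligate partner, the 5 MAX-binding antagonists Mxi1, Mxd1, Mxd3, Mxd4 and Mnt, and Odc1, a direct MYC target. All 10 were among the 18909 genes tested, those with a mean of at least 0.1 TPM (a length- and library-scaled transcript abundance, the deposited unit) over the 12 libraries. MYC proteins bind DNA only as dimers with MAX, at the E-box sequence, and recruit coactivators that raise transcription of genes for ribosome biogenesis, nucleotide synthesis and cell cycle entry. The MXD proteins, MXI1 and MNT compete for MAX and for the same sites and recruit the SIN3 and histone deacetylase corepressors. MYC is an established driver of liver cancer. The authors of the study describe MYC-driven mouse tumors as closer to hepatocellular carcinoma with hepatoblastoma-like features. They also state that hepatoblastoma can start in mice without an intact Myc gene. Hypoxia-inducible factor (HIF) is known to raise Mxi1 transcription in several cell types.

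RNA was sequenced from BN1, a murine hepatoblastoma cell line obtained from a liver tumor of an FVB/N mouse. The tumor overexpressed an in-frame deletion mutant of β-catenin and a missense mutant of NRF2, and exon 2 of its Cdkn2a had been edited. All groups carried the Cdkn2a editing and a stably transfected reporter in which the Tie2 (Tek) promoter, an endothelial promoter, drives EGFP. No group of unedited cells was compared, and the line came from a single tumor model. The 4 groups of 3 libraries were unsorted cells in normoxia at 21% oxygen (UN), unsorted cells after 2 days at 1% oxygen (UH), EGFP+ cells sorted after 2 days of hypoxia and expanded for about 10 days in normoxia (SN), and the sorted cells returned to 1% oxygen for 2 more days (SH). Sorted and unsorted groups differed in EGFP selection, earlier hypoxia and expansion together, so these cannot be told apart in any sorted versus unsorted comparison. The titles give EGFP+ for the unsorted groups too, so the label refers to the reporter line there. The sources call the replicates separate samples but not separately derived lines, so p-values measure the spread between these samples.

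Tek, which tracks the sort, averaged 0.133 ± 0.00875 TPM in UN, 0.157 ± 0.0705 in UH, 2.49 ± 0.360 in SN and 3.04 ± 0.232 in SH (SD, n = 3). Cdkn2a transcript remained measurable in every library and averaged 265 ± 65.4 TPM in UN against 8.46 ± 0.992 in SH, so its level does not check the editing. Hepatocyte markers summed to 4.83 to 61.8 TPM per library and the 5 hepatoblast markers to 120 to 268 TPM in unsorted and 10.7 to 24.7 TPM in sorted libraries, whereas the biliary markers summed to 877 to 4749 TPM. The hepatoblast marker Afp went against its sum, at 1.83 TPM in UN and 1.22 in UH against 9.20 in SN and 5.075 in SH. In SN versus UN it was called higher and the other 4 lower (10.8% of all genes were called in either direction). Most of the biliary sum was Spp1 (2832 TPM in UN and 4485 TPM in SN), with Epcam at 0 in every sorted library and Krt19 at 0.837 TPM in SN, and most of the hepatocyte sum in sorted cells was Trf (47.2 TPM in SN). The endothelial markers, Tek included, summed to at most 5.28 TPM, with Tie1 at 0 in every UN, UH and SN library. UN replicate 1 stood apart, with fibroblast markers summing to 5159 TPM against 1175 to 1323 TPM in the other UN libraries and 4851 to 7133 TPM in UH. SH replicate 3 stood apart for Mxd1 and beyond the members. The HIF targets described below summed to 2039 TPM in it, against 2562 and 2715 TPM in SH replicates 1 and 2. Genes repressed by MYC summed to 1622 against 2169 and 2183 TPM, whereas targets shared by MYC and HIF were close (5567 against 5674 and 5709 TPM). Its mitochondrial share was 4.68% of TPM against 2.94% and 2.66%. In these bulk libraries, fewer cells of a type and less RNA per cell cannot be told apart.

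Promoter windows of 4 members are shown with matches to the 2 sequence cores that this network and the hypoxia response are known to read. RefSeq windows (GRCm38.p6, 250 bases before to 50 bases after each annotated start) were found for 9 of the 10 members, 11 windows in all. Both strands were searched for the E-box CACGTG and for ACGTG or GCGTG, the core of the HIF response element, which CACGTG also contains. The 4 windows below belong to Mxi1 and Mxd1, the antagonists called higher in both hypoxia comparisons, to Mnt, the antagonist called higher with sorting in normoxia, and to the target Odc1. The Mxd3 window held neither core. Capitals mark the bases of any match, on either strand.
Mxi1, chr19:53329163-53329462, plus strand: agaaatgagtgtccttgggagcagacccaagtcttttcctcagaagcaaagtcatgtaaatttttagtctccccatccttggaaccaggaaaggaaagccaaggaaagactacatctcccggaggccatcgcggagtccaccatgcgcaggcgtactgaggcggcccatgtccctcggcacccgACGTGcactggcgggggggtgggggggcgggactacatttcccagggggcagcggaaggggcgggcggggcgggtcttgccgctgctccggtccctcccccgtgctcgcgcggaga
Mxd1, chr6:86669110-86669409, minus strand: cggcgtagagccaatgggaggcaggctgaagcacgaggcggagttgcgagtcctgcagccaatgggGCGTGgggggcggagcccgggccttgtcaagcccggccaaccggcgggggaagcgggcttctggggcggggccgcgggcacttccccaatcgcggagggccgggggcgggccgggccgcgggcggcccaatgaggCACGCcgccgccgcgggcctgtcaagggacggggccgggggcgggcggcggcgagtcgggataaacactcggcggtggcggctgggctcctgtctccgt
Mnt, chr11:74830674-74830973, plus strand: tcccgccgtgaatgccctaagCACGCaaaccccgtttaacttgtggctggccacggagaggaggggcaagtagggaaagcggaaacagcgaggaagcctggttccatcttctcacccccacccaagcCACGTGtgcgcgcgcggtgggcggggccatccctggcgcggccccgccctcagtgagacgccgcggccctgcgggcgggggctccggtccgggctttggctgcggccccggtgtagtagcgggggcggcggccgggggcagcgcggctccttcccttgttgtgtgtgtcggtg
Odc1, chr12:17544623-17544922, plus strand: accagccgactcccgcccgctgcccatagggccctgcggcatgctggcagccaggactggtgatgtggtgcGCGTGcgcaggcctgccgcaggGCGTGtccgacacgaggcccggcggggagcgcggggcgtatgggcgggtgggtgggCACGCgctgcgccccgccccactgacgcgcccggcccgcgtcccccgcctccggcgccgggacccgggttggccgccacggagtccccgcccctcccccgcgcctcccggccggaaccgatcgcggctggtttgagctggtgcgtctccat

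The Mxi1 window held a single ACGTG, 66 bases before its start. Of the other Mxi1 starts, the window beginning at 53310256 held no match and the one beginning at 53329445 held an ACGTG 25 bases before its start. The Mxd1 window held GCGTG 184 bases before the start and, on the other strand, 49 bases before it. In the Mnt window an E-box lay 123 bases before the start and a GCGTG 229 bases before it. The Odc1 window held 3 GCGTG matches, 179, 157 and 101 bases before the start, and no CACGTG. The E-box was present in the windows of 3 members (Max, Mxd4 and Mnt) and in 7.15% of the 32817 promoter windows of the genome. A HIF core was present in windows of 7 members and in 43.8% of all windows. A match describes the letters only, and no binding was measured.

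In UH versus UN, the comparison that asks how unsorted cells responded to hypoxia, Mxi1 and Mxd1 rose, Mycl rose and Mxd3 fell, so 4 of the 10 members were called (adjusted p under 0.05 and more than 2-fold), against 17.2% of all genes tested. SH versus SN asks how sorted cells, already exposed to hypoxia before the sort, responded to a renewed exposure. There Mxi1 and Mxd1 rose again and no other member was called (2 of 10, against 12.5% of all genes). Sorted cells in normoxia carried more Mnt and less Mxd4 than unsorted cells (2 of 10, against 10.8%), and sorted cells in hypoxia more Odc1 and less Mycl than unsorted cells in hypoxia (2 of 10, against 13%). Myc itself was called in none of the 6 pairwise comparisons. Fold changes and their SE are from limma on log2(TPM + 1), which understates the change of genes with low levels, and adjusted p-values are Benjamini-Hochberg over all 18909 genes.

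**Figure D1:**
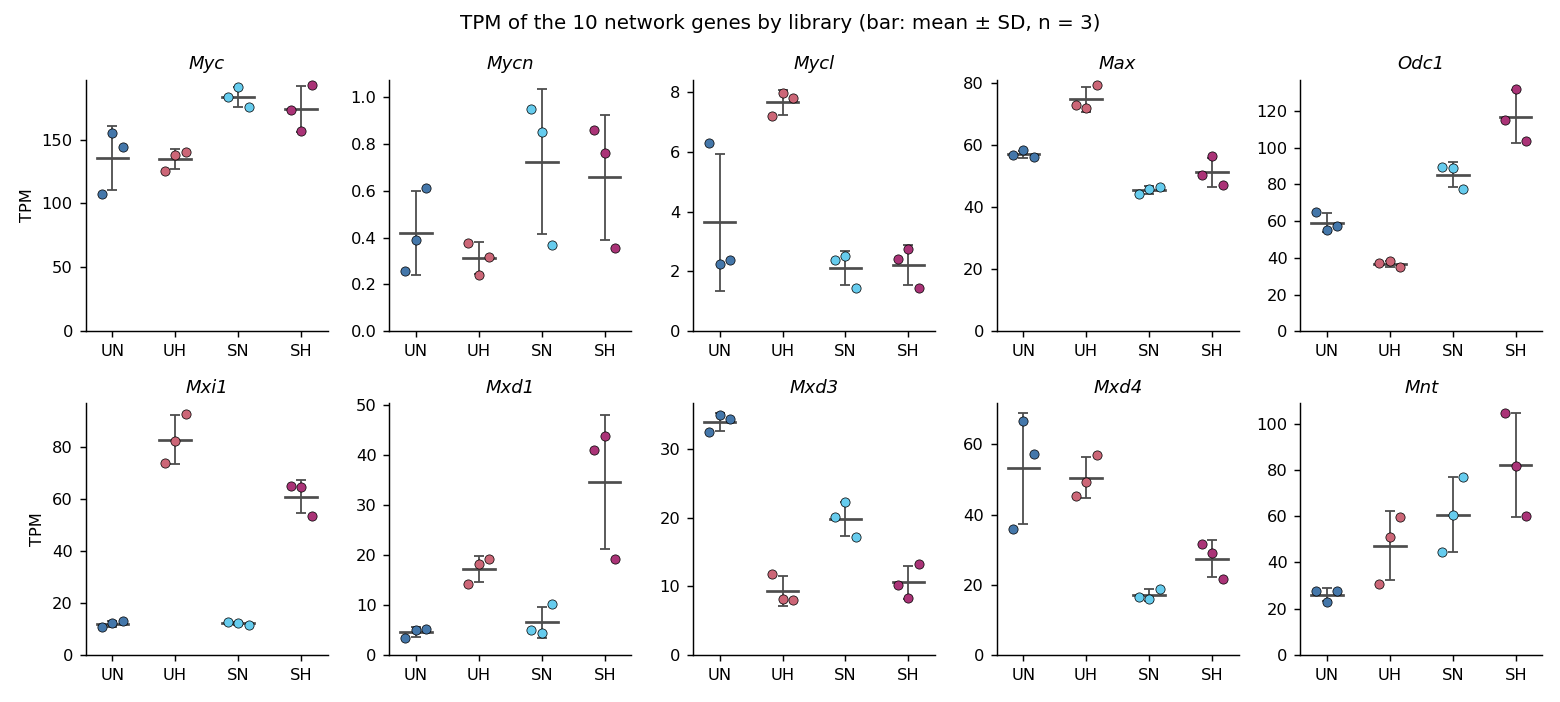
TPM of each of the 10 members in the 12 libraries by group (points), with the group mean and SD (n = 3), each panel on its own linear axis from 0. Mxi1 lay between 53.4 and 92.5 TPM in the 6 hypoxic libraries and between 10.6 and 12.9 TPM in the 6 normoxic ones, while Myc lay between 107 and 193 TPM throughout.

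Myc (ENSMUSG00000022346, chromosome 15, 61985391 to 61990374 of mm10, plus strand) supplied 94.2% to 99.1% of the summed MYC family TPM in each library. Its levels were 107, 155 and 144 TPM in the 3 UN libraries and 126, 138 and 140 TPM in the 3 UH libraries. The 2 groups overlapped, with UN replicate 1 the lowest of all 12 libraries. In SN it was measured at 184, 191 and 176 TPM and in SH at 173, 157 and 193 TPM. Every sorted library was above every unsorted one at the same oxygen level. SN exceeded UN by 0.45 ± 0.131 on the log2 scale (SE, n = 3 per group, limma adjusted p = 0.0195) and SH exceeded UH by 0.36 ± 0.131 (limma adjusted p = 0.0425), neither reaching 2-fold. The first lost its adjusted p under 0.05 without SN replicate 1 (0.0525) or SN replicate 2 (0.0689). The second difference was 0.14 (limma adjusted p = 0.41) when TPM were rescaled by the median of ratios, and its adjusted p was 0.134 without SH replicate 3, 0.116 without UH replicate 1, 0.0919 without SH replicate 1 and 0.0778 without UH replicate 2. No hypoxia effect passed the test, at 0.0072 ± 0.131 in unsorted cells (limma adjusted p = 0.982) and -0.079 ± 0.131 in sorted cells (limma adjusted p = 0.683), but with median-of-ratios scaling the former was 0.36 (limma adjusted p = 0.042).

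Mycn (ENSMUSG00000037169, chromosome 12, 12936093 to 12941914, minus strand), the paralog best known from neuroblastoma, was at a low level, with 0.240 to 0.949 TPM over the 12 libraries. Its group means ran from 0.311 ± 0.0680 TPM in UH to 0.724 ± 0.310 TPM in SN. Replicate 3 was the lowest library in both SN (0.370 TPM) and SH (0.354 TPM), and no pair of groups was separated. Mycl (ENSMUSG00000028654, chromosome 4, 122995652 to 123002485, plus strand), first found in small cell lung cancer, reached 7.20, 7.99 and 7.82 TPM in UH. The UN libraries had 6.30, 2.25 and 2.38 TPM. The UH libraries were all higher, yet UN replicate 1 lay near them and apart from its own group. The call in UH versus UN (1.01 ± 0.293 on the log2 scale, limma adjusted p = 0.0142) stood close to the threshold: it was 1.39 without UN replicate 1, 0.80 (adjusted p = 0.0658) without UN replicate 2 and 0.83 (adjusted p = 0.0637) without UN replicate 3. In sorted cells Mycl measured 2.37, 2.53 and 1.45 TPM in SN and 2.42, 2.75 and 1.46 TPM in SH, with overlapping groups. SH versus UH gave -1.46 ± 0.293 on the log2 scale (limma adjusted p = 0.00198), and the groups did not overlap. For Mycl the difference of the hypoxia responses, sorted minus unsorted, was -0.97 ± 0.414 (limma adjusted p = 0.116). It was called without UN replicate 1 (-1.35, limma adjusted p = 0.00513) and with quantile normalization (-1.58, limma adjusted p = 0.0242), and 18 other alternatives left it uncalled. The summed fibroblast markers moved with Mycl across unsorted libraries, as given above, and were 199.5 to 209.5 TPM in SN and 50.5 to 66.5 TPM in SH. The single markers were split in UH versus UN. Of 7 tested, 3 were called higher and 3 lower (5.46% and 11.8% of all genes). Col1a1 averaged 704.3 TPM in UN and 3051 TPM in UH, and Pdgfra 141.5 and 28.45 TPM. The part of the fibroblast markers in the Mycl difference was not tested.

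Max (ENSMUSG00000059436, chromosome 12, 76937269 to 76962201, minus strand) varied least of the members apart from Myc, by 1.64-fold between its highest and lowest group mean. It measured 56.6, 58.2 and 55.9 TPM in UN and 72.8, 71.9 and 79.1 TPM in UH. In SN it was at 44.1, 45.7 and 46.5 TPM and in SH at 50.2, 56.3 and 46.9 TPM. All UH libraries were the highest and all SN libraries the lowest. Max was higher in UH than in UN by 0.38 ± 0.0871 on the log2 scale (limma adjusted p = 0.00341), lower in SN than in UN (-0.32 ± 0.0871, limma adjusted p = 0.0145) and lower in SH than in UH (-0.54 ± 0.0871, limma adjusted p = 0.000457), all within 2-fold. The SN versus UN difference was -0.20 (limma adjusted p = 0.0846) with median-of-ratios scaling. Its adjusted p was 0.0505 without SN replicate 1 and 0.0508 without UN replicate 2. The summed TPM of MYC family and antagonists was 4.73 ± 0.676 times that of Max in UN, 4.68 ± 0.377 in UH, 6.65 ± 0.161 in SN and 7.71 ± 0.830 in SH (SD, n = 3), a ratio of transcripts and not of proteins.

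Among the antagonists, Mxi1 (ENSMUSG00000025025, chromosome 19, 53310518 to 53375810, plus strand), a MAX partner that represses MYC targets, showed the clearest response to oxygen. It was measured at 10.6, 12.2 and 12.9 TPM in UN and 73.6, 82.1 and 92.5 TPM in UH. In SN it stood at 12.6, 12.3 and 11.6 TPM and in SH at 64.7, 64.4 and 53.4 TPM. Hypoxic and normoxic libraries were far apart in both populations, and UN and SN overlapped. Mxi1 rose by 2.70 ± 0.119 on the log2 scale in unsorted cells, a 6.97-fold ratio of means (limma adjusted p = 2.96e-08). In sorted cells it rose by 2.23 ± 0.119, a 5.01-fold ratio (limma adjusted p = 2.08e-07). The difference of the 2 responses, sorted minus unsorted, was -0.47 ± 0.168 (limma adjusted p = 0.0669), and -0.80 (adjusted p = 0.000738) with median-of-ratios scaling. The gene overlaps a pair of opposite-strand genes, of which Gm10197 was at most 4.18 TPM. Mxd4 also overlaps an antisense transcript, and Max and Mxd1 each overlap an uncharacterised transcript on their own strand.

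Mxd1 (ENSMUSG00000001156, chromosome 6, 86647042 to 86669161, minus strand), an antagonist known from differentiating cells, followed. Its levels were 3.39, 5.02 and 5.25 TPM in UN and 14.2, 18.2 and 19.2 TPM in UH. In SN they were 4.97, 4.43 and 10.1 TPM and in SH 41.0, 43.7 and 19.3 TPM. Both hypoxic groups lay above their normoxic counterparts, and within SH replicate 3 sat well below the others and level with the highest UH library. Mxd1 rose by 1.72 ± 0.327 on the log2 scale in unsorted cells (limma adjusted p = 0.00108) and by 2.24 ± 0.327 in sorted cells (limma adjusted p = 0.000225). SH exceeded UH by 0.90 ± 0.327 (limma adjusted p = 0.0454), which became 1.26 (adjusted p = 0.00643) without SH replicate 3. The adjusted p was lost in many other settings, among them 0.155 without SH replicate 1, 0.167 without SH replicate 2, 0.132 without UH replicate 1 and 0.0842 with median-of-ratios scaling. The difference between the 2 hypoxia responses was 0.52 ± 0.462 (limma adjusted p = 0.439).

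Mxd3 (ENSMUSG00000021485, chromosome 13, 55325168 to 55329823, minus strand), the MXD member linked to the S phase of proliferating cells, went the other way. It was at 32.5, 34.9 and 34.4 TPM in UN and at 11.8, 8.12 and 8.04 TPM in UH. SN libraries had 20.1, 22.2 and 17.2 TPM and SH libraries 10.2, 8.33 and 13.2 TPM. Each hypoxic group was below its normoxic one with no overlap, while UH and SH overlapped. Mxd3 fell by 1.78 on the log2 scale in unsorted cells (-1.78 ± 0.178, limma adjusted p = 9.87e-06). In sorted cells the difference was -0.86 ± 0.178 (limma adjusted p = 0.00235), short of 2-fold, from a starting level that was already lower in SN than in UN (-0.75 ± 0.178, limma adjusted p = 0.00674). The responses differed by 0.91 ± 0.252 (limma adjusted p = 0.0243), which was 0.59 (adjusted p = 0.202) with median-of-ratios scaling and had an adjusted p of 0.056 to 0.0608 without SN replicate 3, UH replicate 2, UN replicate 2 or UN replicate 3. Mxd3 overlaps Prelid1 on the opposite strand, which averaged 797 TPM in UN, 1245 in UH, 543 in SN and 711 in SH. The library kit was stranded but the strand setting of the quantification is not given in the sources used here, so the Mxd3 values are uncertain to that extent.

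Mxd4 (ENSMUSG00000037235, chromosome 5, 34173883 to 34187720, minus strand), usually found in resting and differentiated cells, separated sorted from unsorted cells. The levels were 35.8, 66.6 and 57.3 TPM in UN and 45.3, 49.4 and 57.0 TPM in UH. They were 16.4, 15.8 and 18.9 TPM in SN and 31.7, 29.0 and 21.7 TPM in SH. All sorted libraries lay below all unsorted ones, UN replicate 1 being the lowest of its group. Mxd4 fell by 1.54 on the log2 scale in SN versus UN (-1.54 ± 0.208, limma adjusted p = 0.000176), and SH versus UH was -0.87 ± 0.208 (limma adjusted p = 0.00586). The latter passed 2-fold with median-of-ratios scaling (-1.09) and with quantile normalization (-1.01). Within sorted cells SH exceeded SN by 0.64 ± 0.208 (limma adjusted p = 0.0274, and 0.108 without SH replicate 1), and within unsorted cells the difference was -0.034 ± 0.208 (limma adjusted p = 0.92).

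Mnt (ENSMUSG00000000282, chromosome 11, 74830920 to 74845725, plus strand), a broadly expressed MAX partner and repressor, had SDs of 14.9 to 22.3 TPM in the UH, SN and SH groups and of 2.78 TPM in UN. It was measured at 27.5, 22.8 and 27.8 TPM in UN and 30.7, 51.0 and 59.8 TPM in UH. The SN libraries had 44.4, 60.5 and 77.1 TPM and the SH libraries 105, 81.7 and 60.0 TPM. UN was below every other group, SN overlapped both UH and SH, and UH and SH did not overlap. Mnt rose by 1.16 ± 0.267 on the log2 scale in SN versus UN (limma adjusted p = 0.00571), a call that was lost without SN replicate 3, where the value fell under 2-fold (0.97). UH exceeded UN by 0.79 ± 0.267 (limma adjusted p = 0.0301) and SH exceeded UH by 0.80 ± 0.267 (limma adjusted p = 0.0307), and SH versus SN gave 0.43 ± 0.267 (limma adjusted p = 0.228). Neither of the first pair held with every library left out in turn, the adjusted p reaching 0.118 without UH replicate 3 and 0.128 without SH replicate 1. UH versus UN passed 2-fold with median-of-ratios scaling (1.13), with quantile normalization (1.10) and without UH replicate 1 (1.06). SH versus UH passed it without SH replicate 3 (1.01), and with median-of-ratios scaling was 0.58 (limma adjusted p = 0.0633). The 2 normoxia-to-hypoxia comparisons and the 2 sorting comparisons share UN, UH, SN or SH libraries and are not independent.

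**Figure D2:**
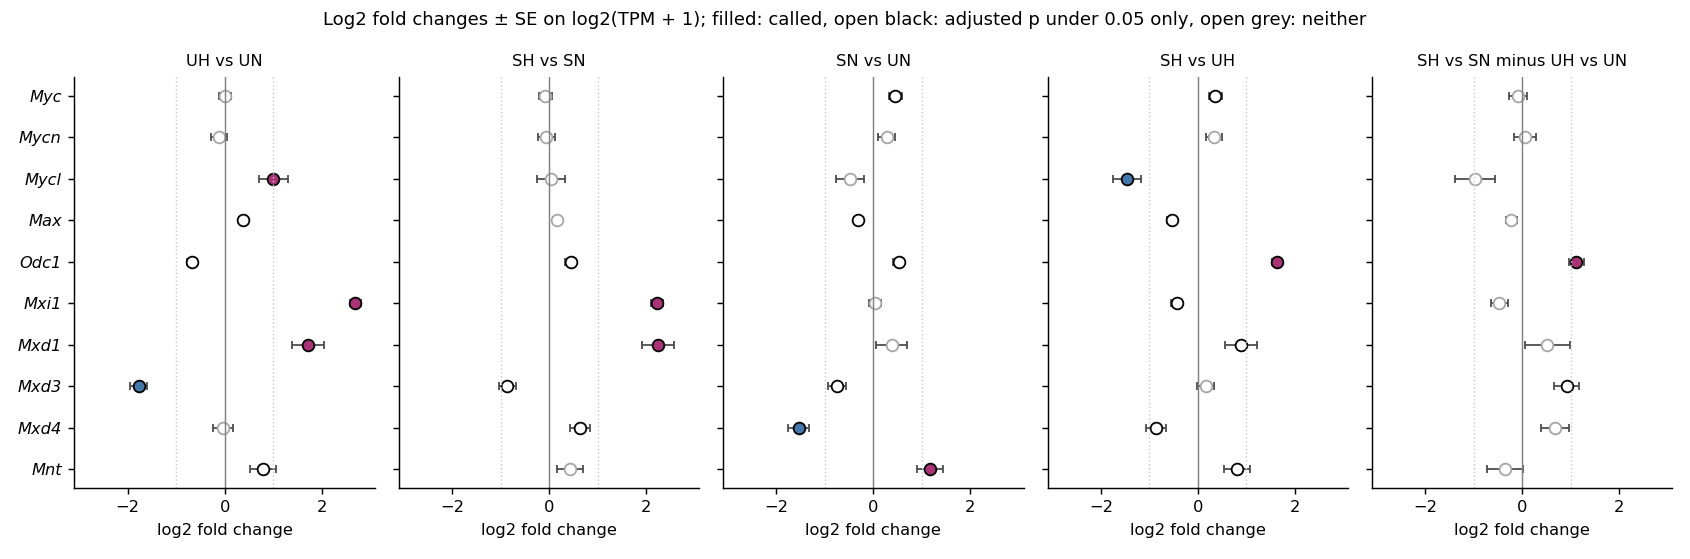
Log2 fold change ± SE (log2(TPM + 1) scale, horizontal axis) of the 10 members in UH vs UN, SH vs SN, SN vs UN, SH vs UH and the difference of the hypoxia responses. Filled points were called, and dotted lines mark a 2-fold difference. Mxi1 and Mxd1 lie to the right of the dotted line in both hypoxia panels, whereas Odc1 is called only in SH vs UH and in the difference.

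The make-up of the antagonist transcripts differed between the groups. Their summed level was 109.7, 141.5 and 137.6 TPM in UN and 175.7, 208.9 and 236.5 TPM in UH. It was 98.5, 115.3 and 134.9 TPM in SN and 252.3, 227.2 and 167.6 TPM in SH. Each hypoxic library lay above every normoxic library of the same population. Mxd4 made up 40.5% ± 7.27 of the sum in UN and Mxi1 9.20% ± 0.526, whereas in UH Mxi1 made up 40.1% ± 1.56. In SN Mnt supplied 51.6% ± 6.05 of the sum, and in SH 37.8% ± 3.24, beside Mxi1 at 28.6% ± 3.11 and Mxd1 at 15.7% ± 3.93 (SD, n = 3). Against the MYC family sum, which was 139.6 ± 23.1 TPM in UN, 142.7 ± 8.27 in UH, 186.2 ± 8.43 in SN and 177.0 ± 17.2 in SH, the antagonist sum was 0.932 ± 0.0347 in UN, 1.45 ± 0.136 in UH, 0.627 ± 0.121 in SN and 1.24 ± 0.325 in SH. SH replicate 3, at 0.862, was the only hypoxic library in which the antagonists summed to less than the MYC family. These sums are descriptions of transcript levels and carry no test.

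**Figure D3:**
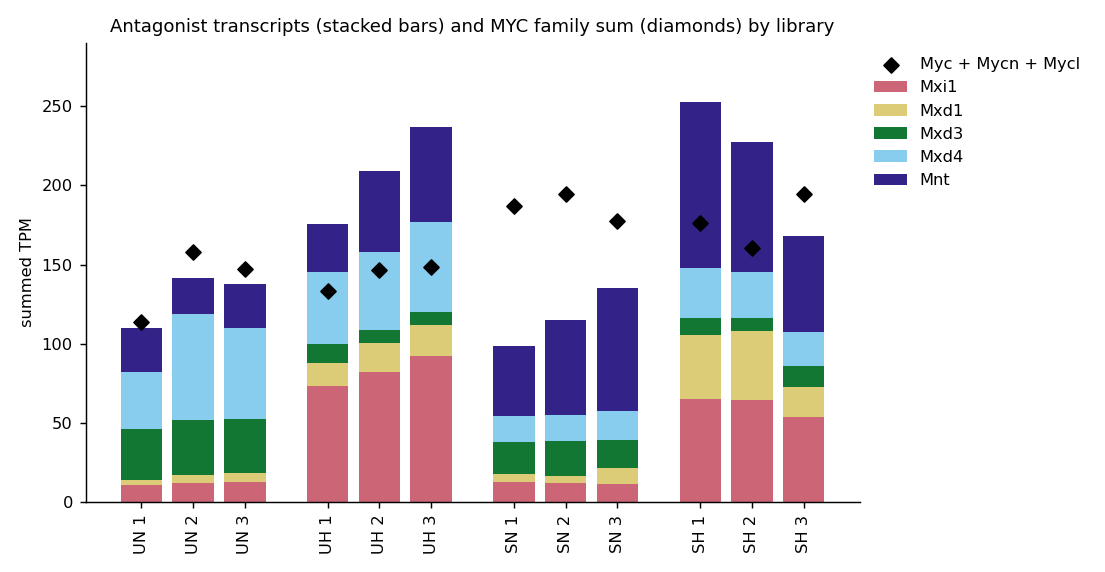
Summed TPM (vertical axis) of the 5 antagonists stacked by gene in each of the 12 libraries, with the summed Myc, Mycn and Mycl TPM as diamonds. The stacks exceed the diamonds in all 3 UH libraries and in SH replicates 1 and 2, but in none of the UN or SN libraries.

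Odc1 (ENSMUSG00000011179, chromosome 12, 17544794 to 17551505, plus strand) encodes ornithine decarboxylase, the rate-limiting enzyme of polyamine synthesis, and is a classical MYC-MAX target. Its levels were 65.0, 55.1 and 57.4 TPM in UN and 37.2, 38.0 and 35.04 TPM in UH. They were 89.4, 89.0 and 77.6 TPM in SN and 115, 132 and 104 TPM in SH. The 4 groups did not overlap and ran in the order UH, UN, SN, SH. Hypoxia was accompanied by a lower level in unsorted cells (-0.67 ± 0.108 on the log2 scale, limma adjusted p = 0.000349) and a higher one in sorted cells (0.45 ± 0.108, limma adjusted p = 0.00621), both within 2-fold. The difference of the responses was 1.12 ± 0.153 (limma adjusted p = 0.000613), and Odc1 was the only one of the 10 members called for it in the main fit, against 10.3% of all genes. SH exceeded UH 3.18-fold (1.64 ± 0.108, limma adjusted p = 5.31e-07). With median-of-ratios scaling the unsorted response was -0.32 (adjusted p = 0.0589) and the difference 0.78 (adjusted p = 0.0102), under 2-fold. Summed proliferation markers moved with Odc1 in unsorted cells, from 1181 to 1254 TPM in UN to 292 to 341 TPM in UH, and went against it in sorted cells, from 1232 to 1501 TPM in SN to 581 to 646 TPM in SH. In the difference of the responses the markers moved with Odc1, and 5 of 9 were called higher (10.3% of all genes were called in either direction). Their median was 1.24 beside 0.25 over all genes tested. With median-of-ratios scaling it was 0.90, and 2 were called higher. In SH versus UH, 8 of 9 were called higher (7.65% of all genes), and 4 with median-of-ratios scaling. The part of the proliferation markers in the Odc1 values was not tested.

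In sorted cells the 11 other genes of the polyamine pathway did not follow Odc1 as a group. In UH versus UN, 2 were called higher and 2 lower (5.46% and 11.8% of all genes). The median log2 fold change was -0.37 beside -0.19 over all genes tested, and with median-of-ratios scaling 2 were called higher and 1 lower. Without the fold threshold, which Odc1 did not reach there, 6 were lower and 2 higher, against 6326 and 2453 of the 18909 genes. In SH versus SN, 1 was called higher and 1 lower (7.47% and 5%), with a median of -0.35 beside 0.028. Without the fold threshold 4 were higher and 5 lower, against 4062 and 3694 genes. Srm, spermidine synthase, fell in both populations, from 102 ± 0.335 to 27.6 ± 1.56 TPM in unsorted cells (-1.85 ± 0.187, limma adjusted p = 1.08e-05) and from 76.7 ± 9.06 to 28.7 ± 10.5 TPM in sorted cells (-1.44 ± 0.187, limma adjusted p = 0.000102). Smox, spermine oxidase, rose in both, and also with sorting, from 20.2 ± 2.84 TPM in UN to 134 ± 18.6 TPM in SH. Sat1, which acetylates spermidine and spermine for breakdown, rose in UH to 172 ± 15.8 from 77.0 ± 8.75 TPM in UN (1.15 ± 0.164, limma adjusted p = 0.000137), while SH versus SN gave -0.35 ± 0.164 (limma adjusted p = 0.111). Azin1, the antizyme inhibitor that protects ornithine decarboxylase, fell in UH (-1.07 ± 0.183, limma adjusted p = 0.000509). Paox, polyamine oxidase, fell in SN versus UN (-2.44 ± 0.162, limma adjusted p = 7.03e-07), from 6.81 ± 1.43 to 0.422 ± 0.0841 TPM.

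**Figure D4:**
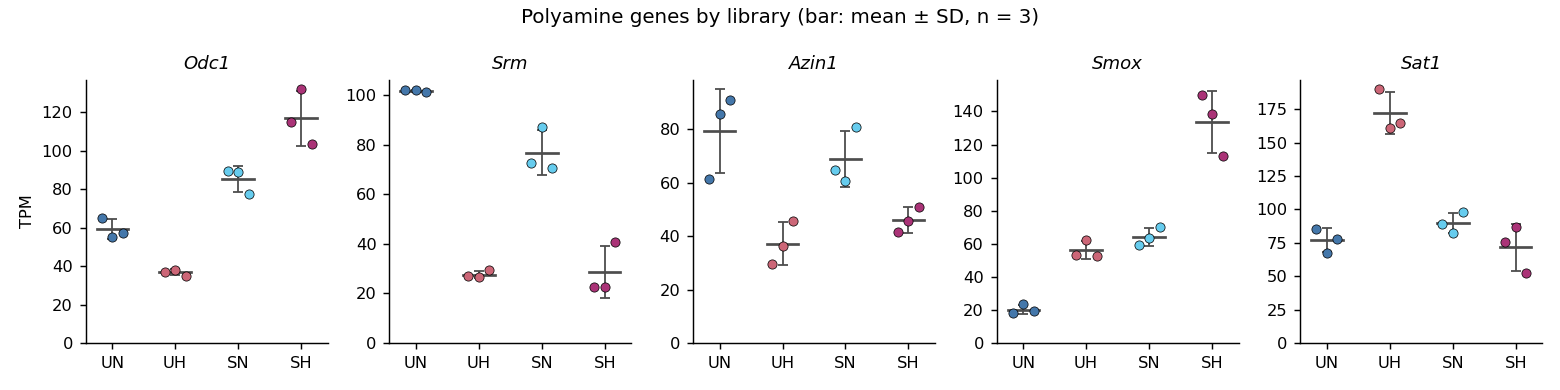
TPM of Odc1 and 4 polyamine genes in the 12 libraries by group (points, with mean and SD, n = 3), on linear axes from 0. Srm is lower in both hypoxic groups, Smox is highest in SH at a mean of 134 TPM, and Odc1 is lowest in UH and highest in SH.

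Many ribosome biogenesis and nucleotide synthesis genes that MYC is known to activate were lower in hypoxia in both populations. Of 30 nucleolar and ribosome biogenesis targets, 18 fell in UH versus UN and 15 in SH versus SN, and none rose, with medians of -1.20 and -0.98 beside -0.19 and 0.028 over all genes tested, of which 11.8% and 5% were called lower. Nop56, a core protein of box C/D ribonucleoproteins, fell from 274 ± 16.5 to 74.9 ± 2.84 TPM in unsorted cells. Of 10 nucleotide synthesis targets, 9 fell in UH versus UN and 6 in SH versus SN, among them Ppat, the first committed enzyme of purine synthesis (-2.10 ± 0.150 and -1.88 ± 0.150). In the sorting comparisons, 1 ribosome biogenesis gene (Mybbp1a, 1.35 ± 0.155) rose in SN versus UN and 6 rose in SH versus UH (3.2% and 7.65% of all genes were higher), among them Rrn3, an RNA polymerase I initiation factor (1.19 ± 0.0906). Under median-of-ratios scaling the median of all genes in UH versus UN moved from -0.19 to 0.00, and the ribosome biogenesis genes called lower then numbered 11 in UH versus UN. All 9 proliferation markers fell in UH versus UN and 5 of 9 in SH versus SN. The proliferation markers thus moved with these MYC targets, and their part in those values was not tested.

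Genes that MYC represses through MIZ1 or SP1 were mostly higher in hypoxia, with 4 of 6 called higher in both UH versus UN and SH versus SN, where 5.46% and 7.47% of all genes were. In UH versus UN, 5 were called higher with median-of-ratios scaling and 3 without UN replicate 1. In SH versus SN the count was 4 under both. Ndrg1, a stress-induced gene, rose from 95.6 ± 39.5 to 1102 ± 41.3 TPM in unsorted cells (3.61 ± 0.280). Cdkn1a, which encodes the p21 cell cycle inhibitor, rose from 51.9 ± 30.0 to 550 ± 22.2 TPM in unsorted and from 195 ± 15.0 to 713 ± 122 TPM in sorted cells. Cdkn2b, a CDK4/6 inhibitor, fell in UH versus UN (-1.48 ± 0.180, limma adjusted p = 4.21e-05). All 6 targets shared by MYC and HIF rose in both hypoxia comparisons, among them Slc2a1, the glucose transporter GLUT1 (4.24 ± 0.159 in UH versus UN and 2.64 ± 0.159 in SH versus SN). Of 8 other HIF targets, 7 rose in both. Of 6 cell cycle targets of MYC, 1 rose and 2 fell in UH versus UN and 2 fell in SH versus SN. Of all genes, 11.8% and 5% were called lower in these 2 comparisons. With median-of-ratios scaling 1 of the 6 fell in UH versus UN. Ccnd1, which encodes cyclin D1, fell in both (-2.28 ± 0.167 and -2.00 ± 0.167), while Ccnd2, cyclin D2, rose in UH versus UN (1.52 ± 0.170, limma adjusted p = 2.22e-05) and in SH versus SN gave 0.35 ± 0.170 (limma adjusted p = 0.123).

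Of 10 cofactors of MYC and the MXD proteins, 3 fell in UH versus UN and 2 in SH versus SN (11.8% and 5% of all genes were lower), and none was called in SN versus UN or SH versus UH. With median-of-ratios scaling none of the 10 was called in UH versus UN, and 2 were in SH versus SN. Ruvbl1, an ATPase of the TIP60 complex, fell from 102 ± 1.17 to 40.8 ± 2.46 TPM in unsorted cells and the deacetylase gene Hdac1 from 89.8 ± 5.57 to 42.6 ± 1.67 TPM. Of 6 genes for MYC protein turnover, Skp2, a ubiquitin ligase subunit, fell in both populations (-1.99 ± 0.208 and -1.36 ± 0.208). None of the 4 genes of the parallel MLX branch and MGA was called in UH versus UN, SH versus SN, SN versus UN or SH versus UH. Mlx, the MAX-like partner of that branch, gave -0.88 ± 0.156 in UH versus UN (limma adjusted p = 0.000644) and fell in SH versus UN (-1.20 ± 0.156, limma adjusted p = 5.59e-05).

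**Figure D5:**
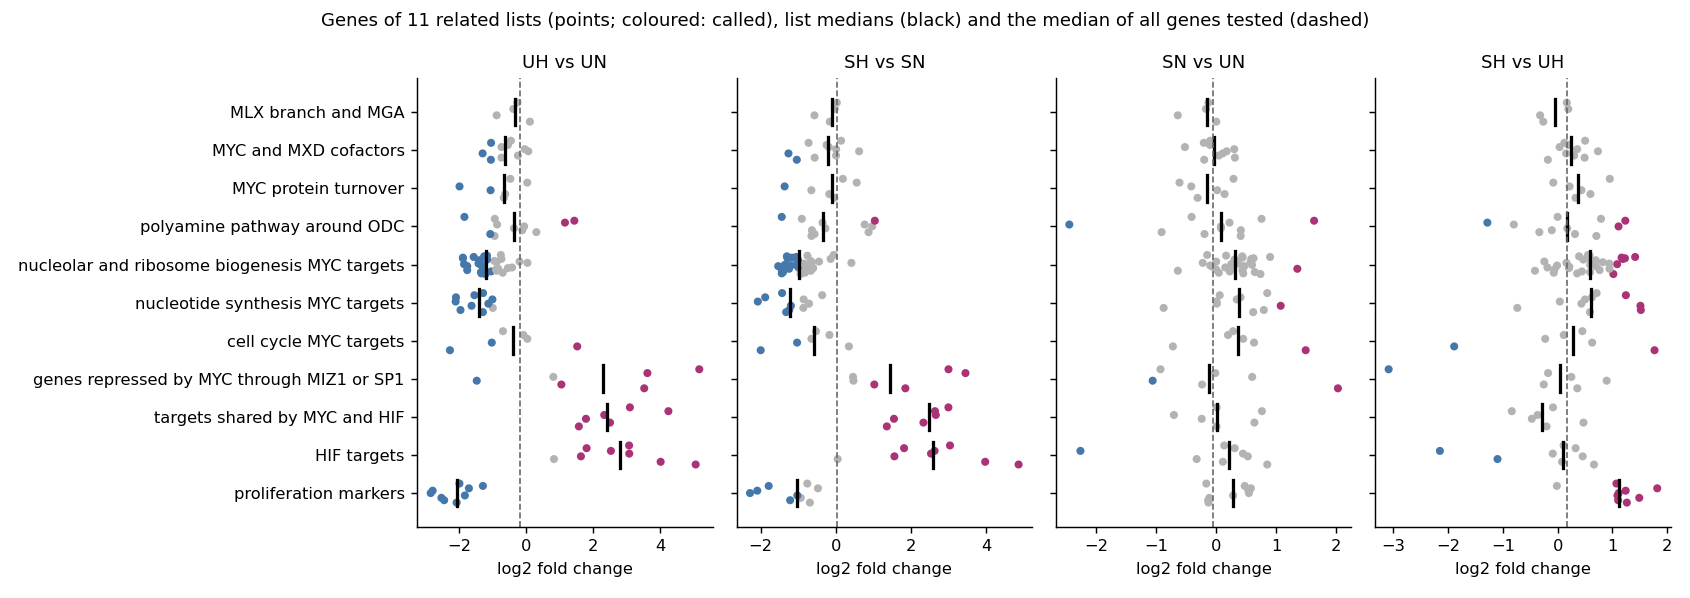
Log2 fold change (log2(TPM + 1) scale) of each gene in 11 lists of related genes for 4 comparisons, with coloured points called, the list median in black and the median of all genes tested dashed. The axes differ between panels. Ribosome biogenesis and nucleotide synthesis medians lie at -1.20 and -1.42 in UH vs UN, and HIF targets at 2.80.

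The remaining comparisons cross oxygen and sorting together. In SH versus UN, 4 of 10 members were called (20.3% of all genes): Mxi1 (2.26 ± 0.119), Mxd1 (2.62 ± 0.327) and Mnt (1.59 ± 0.267) rose and Mxd3 (-1.61 ± 0.178) fell. In SN versus UH, 6 of 10 were called (21.4% of all genes), with Mxd3 (1.03 ± 0.178) and Odc1 (1.19 ± 0.108) higher and Mycl, Mxi1, Mxd1 and Mxd4 lower. The first pair fell under 2-fold with median-of-ratios scaling, at 0.81 for Mxd3 and 0.96 for Odc1. The median log2 fold change over the 10 members was 0.20 in UH versus UN, 0.30 in SH versus SN, 0.15 in SN versus UN and 0.24 in SH versus UH, beside -0.19, 0.028, -0.056 and 0.17 over all genes. The libraries of the 2 groups did not overlap for 7 members in UH versus UN (51.1% of all genes), 6 in SH versus SN (56.8%), 6 in SN versus UN (49%), 8 in SH versus UH (51.7%), 7 in SH versus UN (59.4%) and 8 in SN versus UH (59.4%). An exact permutation test of 3 against 3 libraries cannot give a p below 0.1.

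Over the 12 libraries, the genes whose log2(TPM + 1) was most similar to that of Myc were Scamp2 (Pearson r = 0.939), Sgsm3 (r = 0.922) and Dfna5 (r = 0.920), of 13566 genes with a mean of at least 1 TPM. For Mxi1 they included Gipr (r = 0.998) and Jmjd6 (r = 0.996). Gipr averaged 74.4 TPM in UH and 44.97 in SH against 0.0425 in UN and 0.0150 in SN. For Odc1 they were Wrap53 (r = 0.982), Gtse1 (r = 0.980) and Pitpnm2 (r = 0.978). These coefficients describe 12 libraries that fall into 4 groups and carry no test.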

How the data were processed

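RNA from 12 libraries was prepared with a stranded mRNA kit and sequenced as paired ends. The authors ran nf-core/rnaseq 3.12.0 on mm10 and deposited gene TPM from salmon, which correct for transcript length and library size. Read counts were not used here, so depth is unknown and no counting interval is given. The annotation release and strand setting are not given in the sources used here. Gene coordinates come from GENCODE M21 of the same build. TPM were converted to log2(TPM + 1), 18909 genes with a mean of at least 0.1 TPM were kept, and limma 3.58.1 in R 4.3.3 (empirical Bayes with a trend) was fitted to all 12 libraries with a mean per group. Calls needed an adjusted p under 0.05 and more than 2-fold. The test was checked on simulated data. Because the labels' replicate numbers did not mark pairs (correlations of same-numbered residuals from -0.116 to 0.141), no block was used.

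All 10 members are named, and of each related list the called genes with the largest changes, up to 3 per direction and comparison, of which examples are given, plus for Myc, Mxi1 and Odc1 the 3 most similar genes, 1 of which is not reported here. Genes singled out otherwise (Mlx and single cell type markers) were chosen after their values were seen. Members and lists were chosen with earlier results of these data known. Alternatives were another pseudocount, filters, 2 other scalings, removal of mitochondrial genes, no trend, a replicate block, fits of 2 groups alone, and leaving out each library. Counting the list genes called without UN replicate 1 or SH replicate 3 was added after seeing the data.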

Additional observations from a re-analysis of the deposited data

Results flagged for a closer look

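A pair of members differed in their response to hypoxia between sorted and unsorted cells by the test of the difference itself. For Odc1 the log2 response was 1.12 higher in sorted cells (SE 0.153, limma adjusted p = 0.000613), with the 3 UH libraries all below the 3 UN libraries and the 3 SH libraries all above the 3 SN libraries. For Mxd3 it was 0.91 higher (SE 0.252, limma adjusted p = 0.0243), the decrease being smaller in sorted cells. Median-of-ratios scaling left the Odc1 difference at 0.78 (adjusted p = 0.0102) and the Mxd3 difference at 0.59 (adjusted p = 0.202), and the latter also missed the threshold (adjusted p = 0.056 to 0.0608) without SN replicate 3, UH replicate 2, UN replicate 2 or UN replicate 3. The median difference of responses over all genes tested was 0.25 in the main fit and 0.024 with median-of-ratios scaling. With that scaling Max (-0.56, limma adjusted p = 0.00667) and Mxi1 (-0.80, limma adjusted p = 0.000738) also differed, both within 2-fold. Mycl, at -0.97 (limma adjusted p = 0.116) in the main fit, differed by -1.35 (limma adjusted p = 0.00513) without UN replicate 1. With quantile normalization it differed by -1.58 (limma adjusted p = 0.0242). The sorted cells had been selected, exposed to hypoxia before and expanded, and the parts of these in a difference of responses cannot be told apart. Groups of 3 are too small for a check of single outlying libraries.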

How the results depend on the processing

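Of the members' log2 fold changes under each alternative, 1393 kept their direction and their side of the threshold, 18 became stronger, 16 weaker and 26 reversed, and in those cases the cause was not tested. Depth is unknown, so TPM near 0, as for Mycn, limit the precision most.

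With no fold threshold, the members called numbered 7, 5, 6, 8 and 7 in UH vs UN, SH vs SN, SN vs UN, SH vs UH and SH vs UN and 2 in the difference of responses, and the genes called 8779, 7756, 6411, 7883, 10055 and 4151, with 9450 in SN vs UH. With a pseudocount of 0.1 the genes called were 4882, 4126, 3392, 4360 and 5906 in the first 5. Median-of-ratios scaling left 0 members called in the difference of responses. In the main fit 1032 genes were higher and 2222 lower in UH vs UN, against 1564 and 1217 with that scaling; in SH vs UH the split went from 1447 and 1012 to 1021 and 1323, in SN vs UH from 2319 and 1734 to 1630 and 2184, and in the difference from 1527 and 412 to 901 and 782. Leaving out 1 library gave 1 to 2 members in SN vs UN (1 without SN replicate 3), 2 to 4 in SH vs UH (4 without SH replicate 3) and 1 to 2 in the difference (2 without SH replicate 2, UH replicate 1 or UN replicate 1).

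The related lists with no fold threshold had 84, 38 and 63 genes called in all in SH vs SN, SN vs UN and SH vs UH, with 28, 28, 11 and 21 for ribosome biogenesis in UH vs UN, SH vs SN, SN vs UN and SH vs UH, 6 and 9 for nucleotide synthesis in SN vs UN and SH vs UH, and 8 and 1 for proliferation in SH vs SN and SN vs UN. Under median-of-ratios scaling ribosome biogenesis had 11, 2 and 2 in UH vs UN, SN vs UN and SH vs UH, nucleotide synthesis 5 in UH vs UN and proliferation 4 in SH vs UH. Quantile normalization gave 11 for ribosome biogenesis in UH vs UN and 5 for proliferation in SH vs UH. Without a library, ribosome biogenesis in SH vs UH had 3 to 8 calls (3 without SH replicate 3). The counts without UN replicate 1 or SH replicate 3 were chosen after seeing the data.

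Direction reversed for small differences that had not passed the test. Median-of-ratios scaling gave Mxd4 in UH vs UN 0.32, Mxd3 in SH vs UH -0.041 and the Mycn difference of responses -0.045. Quantile normalization gave Mxd4 in UH vs UN 0.26, Myc in SH vs SN 0.096, Mycl in SH vs SN -0.25 and the Mycn difference -0.36. Without mitochondrial genes Myc in UH vs UN was -0.052 and Mycl in SH vs SN -0.011. Leaving out 1 library gave ranges of -0.15 to 0.11 for Myc in UH vs UN, -0.19 to 0.074 for the Myc difference, -0.21 to 0.086 for Mycn in SH vs SN, -0.10 to 0.19 for the Mycn difference, -0.13 to 0.22 for Mycl in SH vs SN, -0.043 to 0.090 for Mxi1 in SN vs UN and -0.29 to 0.15 for Mxd4 in UH vs UN.

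With the replicate number as a block, Mxd1 in SH vs UH stayed at 0.90 with an adjusted p of 0.0671 instead of 0.0454, and no member changed its call; since the numbers do not mark pairs, the block result is given for completeness.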
